A study of Mus musculus with 1931 samples.

Results

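Among the single cells of Rosette-to-Lumen (RtL) embryoids, 96 Epi cells carried a combination of genes known from primordial germ cells (PGC). They were chosen by their measured values. A cell had to come from a well of columns 1 to 8 on plates 3, 4 or 5. It had to show at least 2500 genes above 0 TPM (transcript abundance relative to all transcripts of the cell). It also had to have *Tfap2c* above 0, and at least 1 of *Dppa3*, *Nanos3* and *Prdm1* above 0. The series has 1931 wells, of which 1149 hold cells of RtL-embryoids. The 96 PGC-like cells make up 30.6% of the Epi cells that reached 2500 genes (exact 95% CI 25.5 to 36%, Clopper-Pearson, counting error only). They were set beside the 190 Epi cells of the same wells in which *Tfap2c* was listed at 0. The 28 cells with *Tfap2c* above 0 and the other 3 genes at 0 belong to neither set, and the 3 sets together are all Epi cells over the minimum.

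RtL-embryoids were assembled from 3 mouse embryonic stem cell (ESC) lines. Kermit ESCs, marked by an Oct3/4-driven GFP and free of any inducible transgene, form the epiblast-like (Epi) compartment. In 5-Factor ESCs doxycycline, used at 2 µg/ml, switches on *Cdx2*, *Tfap2c*, *Eomes*, *Gata3* and *Ets2* for the extraembryonic ectoderm-like (ExE) compartment. In iGATA6 ESCs, which carry mCherry, it switches on *Gata6* for the visceral endoderm-like (VE) compartment. Doxycycline was given for 3 days and withdrawn before the embryoids were harvested. Embryoids were handpicked, pooled and sorted into plates as single cells for SMART-seq2, which makes all these cells 1 sample, divided over 3 plates for technical reasons. No p-value was therefore computed, and the leading differences are given with their values on plates 3, 4 and 5. A level is the TPM of a gene scaled to a sum of 10000 per cell (TP10k), averaged over all cells of a set with zeros included. Kermit ESCs grown in 2D with 2i/LIF, from the same series, were read as a further group.

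PGCs are the founders of sperm and eggs. In the mouse they arise from a few epiblast cells in answer to BMP signals from the neighbouring extraembryonic tissues. The regulators *Prdm1*, *Prdm14* and *Tfap2c* then silence somatic genes, keep pluripotency genes on and start the removal of DNA methylation. *Dppa3*, also called Stella, and *Nanos3*, an RNA-binding protein needed for germ cell survival, are early marks of the lineage. *Tfap2c* and *Dppa3* are not restricted to germ cells, since naive pluripotent cells and, for *Tfap2c*, the trophoblast use them too.

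The rule was met in different ways. In 54 of the 96 cells *Dppa3* alone accompanied *Tfap2c*, in 11 *Prdm1* alone and in 5 *Nanos3* alone. *Dppa3* was joined by *Nanos3* in 10 cells, by *Prdm1* in 9 and by both in 7, so that *Nanos3* was seen in 22 of the 96 cells. These values chose the cells and are given as a description. *Tfap2c* had a mean of 1.24 TP10k in the PGC-like cells, and its lowest values there were 7.25, 7.31 and 7.44 TPM. The lowest value of *Prdm1* above 0 in these cells was 2.69 TPM. How many reads stand behind such values cannot be told from TPM. The PGC-like cells with the fewest genes had 2623, 3072 and 3097, and 0 wells below 2500 genes met the gene rule.

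The PGC-like cells were found on every plate, with 37 on plate 3 (36.6% of its Epi cells, CI 27.3 to 46.8%), 27 on plate 4 (25.2%, CI 17.3 to 34.6%) and 32 on plate 5 (30.2%, CI 21.7 to 39.9%). These intervals overlap. TPM keep no read number, and the number of genes above 0 TPM took the place of depth. Its median was 5019 in the PGC-like cells and 4822 in the cells without *Tfap2c*. On plate 3 the PGC-like cells had more genes (5817 against 5655.5), while on plate 4 (4013 against 4554) and plate 5 (4138.5 against 4286) they had fewer.

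The PGC-like cells resembled the other Epi cells in their Epi markers. *Pou5f1*, which encodes the pluripotency factor OCT3/4, was above 0 in 96 of 96 PGC-like cells and in all but 1 of the 190 cells without *Tfap2c*. It was also above 0 in 90.8% of the wells of columns 9 to 16, at a mean of 4.53 TP10k against 13.2 TP10k in the PGC-like cells, so its presence alone does not separate them. The labels name no sort gate for a well, so the wells were checked against 7 Epi markers (*Pou5f1*, *Nanog*, *Tdgf1*, *Gdf3*, *Utf1*, *Sox2* and *Fgf4*). Their summed level averaged 35.2 TP10k in the PGC-like cells and 38.2 TP10k in the cells without *Tfap2c*, but 6.40 TP10k in the wells of columns 9 to 16 and 2.16 TP10k in those of columns 17 to 24.

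Since 5-Factor cells carry a *Tfap2c* transgene and TPM do not tell it from the endogenous gene, markers of the other compartments were read in the PGC-like cells. *Cdx2*, the trophoblast regulator switched on by the same transgene set, was listed at 0 in all 96, where the exact interval for cells with a value above 0 reaches 3.77%. *Cdx2* was above 0 in 61.5% of the wells of columns 17 to 24, so a value of 0 in a cell does not show that the gene was silent. *Elf5* was above 0 in 4 of 96 against 14 of 190 cells, and the keratin gene *Krt18* in 11 of 96 against 47 of 190. Other ExE markers were seen more often in the PGC-like cells. The FGF receptor *Fgfr2* was above 0 in 16 of 96 against 9 of 190 cells, with folds of 2.18, 1.63 and 5.09 on plates 3, 4 and 5, *Gata3* in 4 of 96 against 3 of 190, and the ligand *Bmp4* in 20 of 96 against 11 of 190. Of the 14 ExE markers 13 were seen in at least 1 PGC-like cell, and their sum had a mean of 1.36 TP10k against 0.907 TP10k in the cells without *Tfap2c*. The median was 0.550 TP10k (range 0 to 24 TP10k), against 0.531 TP10k (0 to 6.85 TP10k) in the cells without *Tfap2c* and 9.27 TP10k in columns 17 to 24. Of the 10 VE markers 9 were seen, with a median sum of 0.591 TP10k (0 to 12.5 TP10k) against 0.670 TP10k (0 to 10.5 TP10k), and 118.5 TP10k in columns 9 to 16. *Gata6* was listed at 0 in all PGC-like cells.

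Outside the genes of the rule, 7609 genes passed a minimum of detection, a value above 0 in 25% or more of either set. A gene was counted as higher or lower where its mean TP10k differed by 1.5-fold or more and the difference had the same direction on all 3 plates. Of these genes 4.78% were higher in the PGC-like cells and 5.93% were lower. With mean log2(TPM + 0.1) in place of mean TP10k the balance turned, with 12.8% higher and 9.2% lower. The median log2 fold of all 7609 genes was -0.01. The shares of 4.78% and 5.93% are the background against which the gene lists are read.

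**Figure D1:**
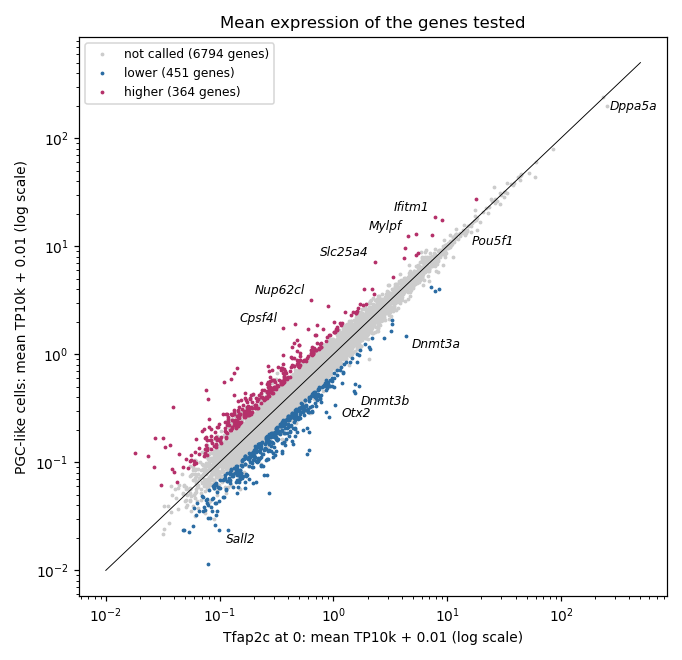
Mean TP10k + 0.01 of each of the 7609 genes in the 96 PGC-like cells (vertical axis) against the 190 Epi cells with *Tfap2c* at 0 (horizontal axis), both on log scales, with the line of equal means. The higher genes (4.78%) are drawn in pink and the lower genes (5.93%) in blue, and *Pou5f1* and *Dppa5a* lie near the line.

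The genes with the largest differences upwards were *Mylpf*, *Ifitm1*, *Slc25a4*, *Mt2*, *Mt1*, *Nup62cl*, *Hmces*, *Cpsf4l*, *Gpx1* and *Lgals1*, ranked by the mean of ln(TP10k + 1). *Mylpf* and *Mt1* had been named as markers of these cells with earlier results of these data known. Their differences are given as a description. *Mylpf*, a regulatory myosin light chain best known from fast skeletal muscle, averaged 12.3 TP10k in the PGC-like cells and 4.49 TP10k in the cells without *Tfap2c*. Its means were 13.9, 14.6 and 8.51 TP10k on plates 3, 4 and 5, against 4.84, 4.82 and 3.79 TP10k. The levels of single cells overlapped widely, but 84 of the 96 PGC-like cells lay above the median of the other set, 1.59 TP10k. It was above 0 in 87.5% of the PGC-like cells (CI 79.2 to 93.4%) and in 57.4% of the others (CI 50.0 to 64.5%).

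The metallothioneins MT1 and MT2 are small proteins that bind zinc and copper, and both genes were higher. *Mt1* averaged 12.9 TP10k against 5.34 TP10k, 2.41-fold, with means of 15.1, 15.8 and 7.81 TP10k on plates 3, 4 and 5 against 6.10, 5.56 and 4.37 TP10k. *Mt2* averaged 9.64 TP10k against 4.22 TP10k, and its fold was between 1.89 and 2.90 on the plates. Both genes thus differed on every plate and least on plate 5. In 70 of 96 PGC-like cells *Mt1* exceeded the median of the cells without *Tfap2c*, and in 76 of 96 *Mt2* did. Of the 8 listed metallothionein and zinc transport genes 5 were tested and 3 were higher, the third being the zinc importer *Slc39a1* (1.14 against 0.740 TP10k), while *Slc39a10*, another importer, was lower (0.235 against 0.364 TP10k). The list holds *Mt1*, which had been named as a marker of these cells with earlier results known. The count is therefore a description, at a background of 4.78% higher and 5.93% lower. Neither zinc importer was counted with a minimum of 4000 genes per cell. The fold of *Slc39a1* was 1.43 without plate 5, and that of *Slc39a10* was 0.806 without plate 4.

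*Mt1* and *Mt2* are neighbours on mouse chromosome 8, at 94179082 to 94180327 and 94172664 to 94173568 on the plus strand (GRCm38, Gencode vM21). They are known to be switched on by the zinc sensor MTF-1 through metal response elements. Because both genes were higher in the PGC-like cells, the 200 bases before each RefSeq start (GRCm38.p6, plus strand, 5′ to 3′) are shown, with every match to the core TGCNCNC on either strand in capitals. The window of *Mt1* is chr8:94178889-94179088 and that of *Mt2* chr8:94172418-94172617.
Mt1: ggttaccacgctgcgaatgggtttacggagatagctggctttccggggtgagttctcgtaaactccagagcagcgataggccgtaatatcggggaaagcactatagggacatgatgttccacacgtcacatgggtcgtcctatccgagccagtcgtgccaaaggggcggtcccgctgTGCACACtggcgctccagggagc
Mt2: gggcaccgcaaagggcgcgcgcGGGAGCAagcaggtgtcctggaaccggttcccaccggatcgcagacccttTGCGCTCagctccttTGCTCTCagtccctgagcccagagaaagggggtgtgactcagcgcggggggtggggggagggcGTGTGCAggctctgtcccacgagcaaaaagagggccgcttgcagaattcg
The *Mt2* window holds 4 matches and the *Mt1* window 1. The *Mt1* window ends past the Gencode start of its gene, and the *Mt2* window ends before that of its gene. The counts are therefore not taken at like positions, and matches outside the windows were not counted. Of 32851 promoter windows of this length, 0.715% hold at least 4 matches and 38.6% at least 1. A match is a likeness of letters and not a measured site. *Mtf1* itself was above 0 in 15 of 96 PGC-like cells and in 45 of 190 others, under the minimum of detection.

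*Slc25a4*, the mitochondrial carrier that exchanges ADP for ATP, averaged 7.14 TP10k against 2.32 TP10k. On plates 3, 4 and 5 the PGC-like cells had 7.97, 7.52 and 5.87 TP10k and the others 1.87, 2.49 and 2.52 TP10k. The ranges of single cells overlapped, but 88 of 96 PGC-like cells lay above the median of the others. *Gpx1*, a glutathione peroxidase that removes hydrogen peroxide, was abundant in both sets and averaged 17.6 against 9.02 TP10k, with folds of 1.64 to 2.15 on the plates and 82 of 96 PGC-like cells above the other median.

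Other leading genes were weak or absent in most cells without *Tfap2c*. *Nup62cl* on the X chromosome averaged 3.17 against 0.623 TP10k and was above 0 in 68 of 96 against 65 of 190 cells. *Cpsf4l* averaged 1.74 against 0.353 TP10k, and was above 0 in 65 of 96 against 33 of 190 cells. For *Lgals1*, the carbohydrate-binding galectin-1, the means were 1.91 and 0.455 TP10k. The plates gave folds of 4.49 to 7.20 for *Nup62cl*, 3.56 to 14 for *Cpsf4l* and 3.23 to 5.58 for *Lgals1*, so the size of these differences varied while the direction did not. *Hmces*, which protects abasic sites in DNA, was 2.16-fold higher (3.97 against 1.84 TP10k), and 1.70 to 2.82-fold on the plates.

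**Figure D2:**
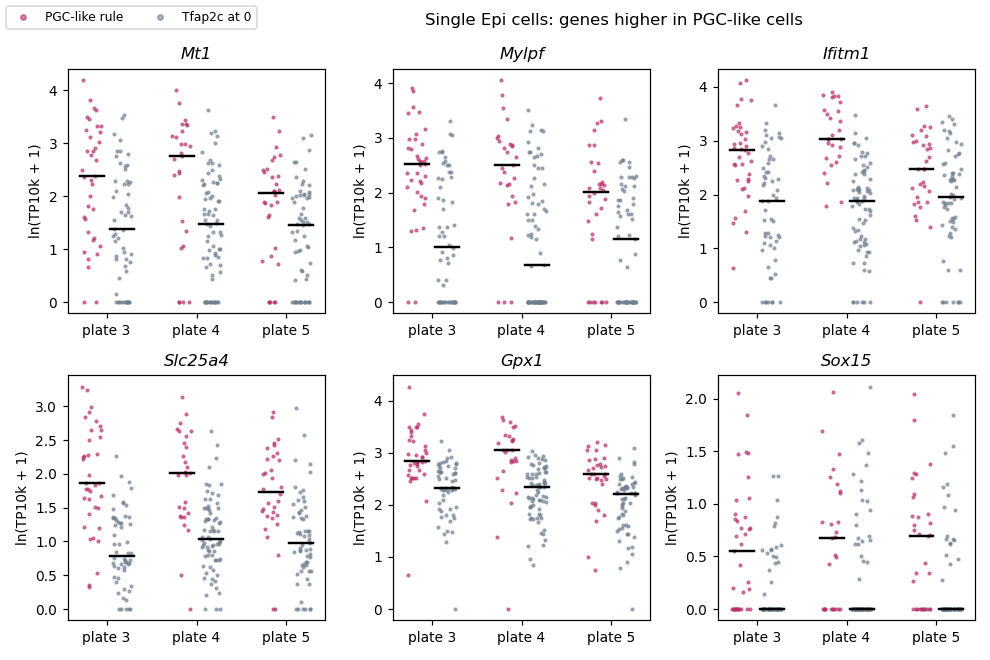
Each point is 1 Epi cell, plotted as ln(TP10k + 1) on the vertical axis for plates 3, 4 and 5, with PGC-like cells in pink, cells with *Tfap2c* at 0 in grey and a black bar at the median of each. The medians of all 6 genes (*Mt1*, *Mylpf*, *Ifitm1*, *Slc25a4*, *Gpx1* and *Sox15*) are higher in the PGC-like cells on every plate, and the ranges overlap.

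Of 14 further early germ cell genes, 13 were in the table and 8 passed the minimum of detection, and 5 of the 8 were higher and 0 lower, at a background of 4.78% and 5.93%. The list was drawn up with results of these cells known, and the count is a description. *Ifitm1* and *Ifitm3*, which encode interferon-inducible membrane proteins long used as marks of nascent PGCs, were the most abundant. *Ifitm1* averaged 18.5 against 7.81 TP10k, with 18.5, 24.6 and 13.4 TP10k on plates 3, 4 and 5 against 8.14, 6.71 and 8.83 TP10k. *Ifitm3* averaged 12.7 against 7.29 TP10k, with folds of 1.61 to 2.09 on the plates. The family is large and similar in sequence, and reads can be split between its genes.

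*Sox15*, a SOX factor close to SOX2 that is active in early germ cells, averaged 1.21 against 0.487 TP10k and was above 0 in 62 of 96 against 60 of 190 cells. Its means on plates 3, 4 and 5 were 1.15, 1.30 and 1.22 TP10k against 0.333, 0.603 and 0.488 TP10k. Thus close to the same mean was reached on each plate by the PGC-like cells. It was not alike within them, since the 27 with *Prdm1* averaged 0.584 TP10k. *Kit*, the receptor through which germ cells receive survival and migration signals, averaged 0.323 against 0.166 TP10k, but its folds of 1.93, 3.53 and 1.05 show almost no difference on plate 5, and without plate 4 the fold was 1.45. *Elf3*, an epithelial ETS factor, showed the same pattern (1.64, 2.92 and 1.12-fold), and its fold without plate 4 was 1.43.

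The remaining early genes did not separate the sets or were seen in few cells. *Prdm14*, partner of *Prdm1* in the germ cell programme, was above 0 in 23 of 96 PGC-like cells (24%, CI 15.8 to 33.7%) and in 23 of 190 others (12.1%, CI 7.83 to 17.6%), and fell short of the minimum of 25%. Its means were 0.137, 0.262 and 0.210 TP10k on plates 3, 4 and 5, against 0.062, 0.049 and 0.096 TP10k. *Tcl1*, a coactivator of AKT, averaged 2.75 against 2.23 TP10k. *Alpl*, the tissue-nonspecific alkaline phosphatase stained in PGCs, averaged 1.35 against 1.42 TP10k and *Pdpn* 0.568 against 0.746 TP10k. *Dnd1*, which acts with the NANOS proteins, was seen in 14 of 96 against 33 of 190 cells, and *Nanos2*, a male germ cell gene of later stages, in none of either.

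Few genes of later germ cells, many of them silenced by DNA methylation in the epiblast, passed the minimum of detection. Of 16 listed, 15 were in the table, 4 were tested, 0 were higher and *Mael*, a piRNA pathway gene, was lower (0.102 against 0.284 TP10k, with folds of 0.184 to 0.483 on the plates). With 4 genes tested, a count of 0 higher is near the background of 4.78% and says little about the list. *Tdrd12*, a piRNA pathway gene outside the list, was higher (1.33 against 0.472 TP10k). It was named after its values were seen. *Ddx4*, the germ cell helicase also called Vasa, averaged 0.147 against 0.122 TP10k and *Dazl*, an RNA-binding protein of germ cells, 0.0762 against 0.120 TP10k. The X-linked homeobox genes *Rhox6* and *Rhox9* were under the minimum of detection. *Rhox6* was above 0 in 20 of 96 (20.8%, CI 13.2 to 30.3%) against 4 of 190 cells (2.11%, CI 0.577 to 5.30%), and *Rhox9* in 14 of 96 against 7 of 190. Neither went one way on all plates. *Rhox6* had means of 0.312, 0.628 and 0.009 TP10k on plates 3, 4 and 5 against 0.015, 0.005 and 0.035 TP10k, and *Rhox9* 0.094, 0.571 and 0.195 TP10k against 0.101, 0.022 and 0.023 TP10k.

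Among the genes that were lower were enzymes of DNA methylation and genes of the primed epiblast. *Dnmt3a* and *Dnmt3b* encode the enzymes that place new DNA methylation when the epiblast leaves the naive state. *Dnmt3a* averaged 1.47 TP10k in the PGC-like cells and 4.31 TP10k in the cells without *Tfap2c*. On plates 3, 4 and 5 the PGC-like cells had 1.43, 1.47 and 1.53 TP10k, against 3.74, 4.73 and 4.33 TP10k. Only 13 of 96 PGC-like cells lay above the median of the others, 3.34 TP10k. *Dnmt3b* averaged 0.429 against 1.53 TP10k, with 0.341, 0.451 and 0.513 TP10k on the plates against 1.62, 1.66 and 1.30 TP10k.

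The other genes of the DNA methylation list did not share this difference. Of its 10 genes 8 were tested, and *Dnmt3a* and *Dnmt3b* were the 2 counted, at a background of 5.93% lower. The maintenance enzyme *Dnmt1* averaged 0.956 against 0.977 TP10k and its partner *Uhrf1* 1.32 against 1.34 TP10k. *Dnmt3l*, the cofactor without enzyme activity, averaged 1.91 against 1.73 TP10k and *Tet1*, which oxidises 5-methylcytosine, 2.54 against 2.21 TP10k. The median log2 fold of the 8 tested genes was -0.02.

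Of 13 genes of primed and formative pluripotency, 9 were tested, 5 were lower and 0 higher, at a background of 5.93% and 4.78%. The 5 include *Dnmt3a* and *Dnmt3b*, given above, so this count is not separate from theirs. The median log2 fold was -0.60 beside -0.01 over all genes. *Otx2*, a homeobox factor of the primed and anterior epiblast, averaged 0.330 against 1.03 TP10k, with 0.423, 0.237 and 0.301 TP10k on plates 3, 4 and 5 against 0.820, 1.23 and 0.996 TP10k. It was above 0 in 36.5% against 64.7% of the cells. The counted genes also include *Sall2* (0.0135 against 0.0898 TP10k) and the TGF-beta ligand *Nodal* (0.366 against 0.554 TP10k). *Nodal* stood at the limit, and with comparison cells in which all 4 genes of the rule were at 0 its fold was 0.685 and was no longer counted. *Fgf5*, the classical mark of the post-implantation epiblast, was under the minimum, in 7 of 96 (7.29%, CI 2.98 to 14.4%) against 44 of 190 cells (23.2%, CI 17.4 to 29.8%). *Lef1*, a nuclear effector of WNT signalling, was seen in 8 of 96 against 46 of 190 cells.

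**Figure D3:**
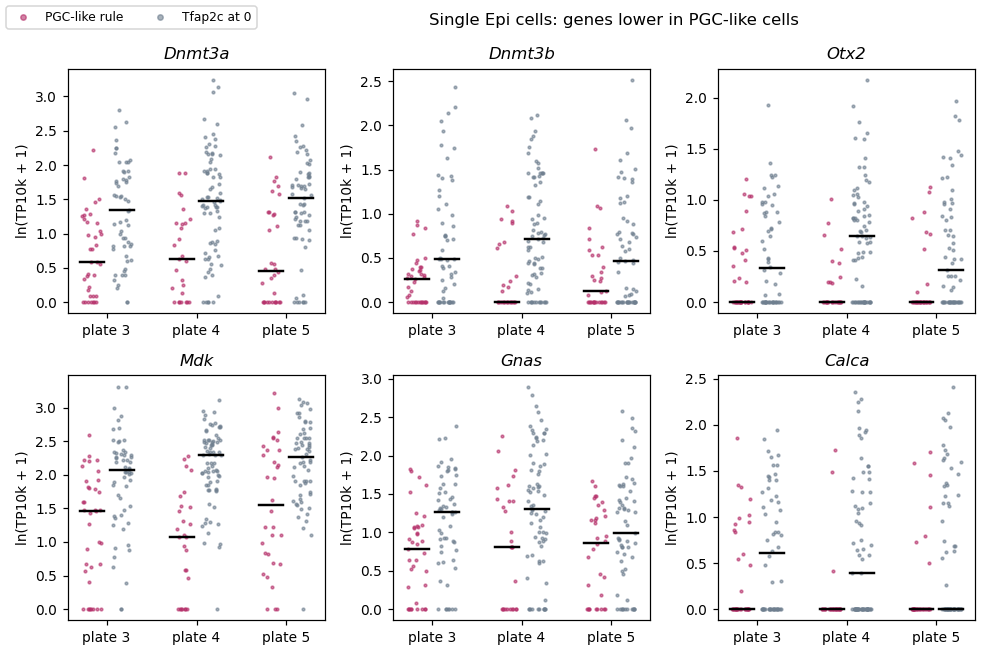
Each point is 1 Epi cell, plotted as ln(TP10k + 1) on the vertical axis for plates 3, 4 and 5, with PGC-like cells in pink, cells with *Tfap2c* at 0 in grey and a black bar at the median of each. *Dnmt3a*, *Dnmt3b*, *Otx2*, *Mdk* and *Gnas* have lower medians in the PGC-like cells on every plate, and for *Calca* the median of both sets is at 0 on plate 5.

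The 10 genes with the largest differences downwards were *Mdk*, *Dnmt3a*, *Trh*, *Rbpms2*, *Pla2g1b*, *Dnmt3b*, *Gnas*, *Calca*, *Igfbp2* and *Isyna1*. *Mdk*, the growth factor midkine, averaged 4.02 against 8.56 TP10k, and on plates 3, 4 and 5 it had 3.44, 2.58 and 5.91 TP10k against 7.56, 8.69 and 9.33 TP10k. Where *Nanos3* or *Prdm1* was required in the PGC-like cells, its fold was 0.603 but 1.02 on plate 5. *Trh*, the precursor of thyrotropin-releasing hormone, averaged 3.83 against 7.78 TP10k (folds of 0.356 to 0.519 on the plates), and *Calca*, the gene of calcitonin, 0.523 against 1.55 TP10k (0.196 to 0.486). *Gnas*, an imprinted locus that encodes the stimulatory G protein alpha subunit, averaged 1.62 against 3.23 TP10k (0.509 to 0.553).

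The RNA-binding protein gene *Rbpms2* averaged 4.15 against 7.22 TP10k and *Isyna1*, the enzyme that makes inositol phosphate from glucose phosphate, 1.88 against 3.24 TP10k. *Pla2g1b*, a secreted phospholipase, averaged 4.72 against 6.87 TP10k, and *Igfbp2*, which binds insulin-like growth factors, averaged 6.65 against 9.21 TP10k. The folds of the last 2, 0.687 and 0.722, did not reach the limit of 1.5-fold.

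Genes of core pluripotency gave no count. All 10 were tested and 0 passed the limit in either direction, with 5 folds above 1, 5 below it and a median log2 fold of 0.00. In 10 genes a count of 0 is near the background of 4.78% higher and 5.93% lower. *Pou5f1* averaged 13.2 against 14.6 TP10k, *Sox2* 1.32 against 0.916 TP10k and *Sall4* 2.71 against 2.68 TP10k. *Tdgf1*, the NODAL coreceptor Cripto, stood nearer to the limit, with 5.78 against 8.24 TP10k, as did the RNA-binding protein gene *Lin28a*, with 0.392 against 0.559 TP10k.

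Of 12 genes of naive pluripotency, 11 were tested, 1 was higher and 1 lower, with a median log2 fold of 0.16. These counts are near the background of 4.78% higher and 5.93% lower. The F-box gene *Fbxo15* averaged 2.46 against 1.56 TP10k, which was 1.95-fold on plate 4 and 1.24-fold on plate 5, and 1.42-fold without plate 4. *Klf4*, a naive factor, was lower (0.0848 against 0.145 TP10k), but with mean log2(TPM + 0.1) its fold was 0.703 and it was not counted. *Zfp42*, also called Rex1, was 1.43-fold higher, *Klf2* 1.46-fold, *Tfcp2l1* 1.41-fold and *Nanog* 1.21-fold, none past 1.5-fold. *Esrrb* averaged 0.824 against 0.736 TP10k.

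**Figure D4:**
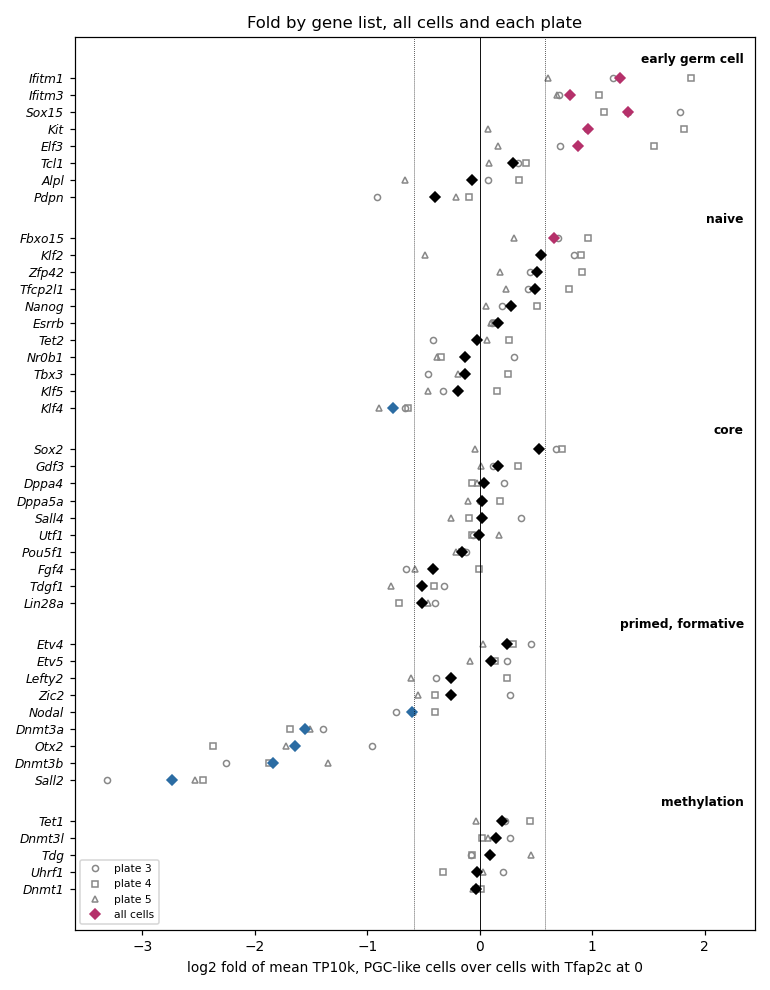
Log2 fold of mean TP10k, PGC-like cells over Epi cells with *Tfap2c* at 0, for each tested gene of 5 lists, with filled diamonds for all cells and open symbols for plates 3, 4 and 5. Pink diamonds are genes counted as higher, blue ones lower, and dotted lines mark 1.5-fold, and *Dnmt3a*, *Dnmt3b*, *Otx2* and *Sall2* lie to the left on every plate while the diamonds of the core genes lie between the dotted lines.

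Since PGCs arise under BMP signals, receptors and response genes were listed. Of 16 genes 9 were tested and 0 were counted, with a median log2 fold of 0.11. In 9 genes a count of 0 is near the background of 4.78% higher and 5.93% lower. The immediate BMP response genes *Id1*, *Id2* and *Id3* averaged 0.219, 0.303 and 0.868 TP10k against 0.456, 0.443 and 0.806 TP10k, and for each of them the plates differed in direction. The ligand *Bmp4*, counted among the ExE markers, was above 0 in 20 of 96 PGC-like cells (20.8%, CI 13.2 to 30.3%) and in 11 of 190 others (5.79%, CI 2.93 to 10.1%), under the minimum of detection. It averaged 0.624, 0.782 and 0.159 TP10k on plates 3, 4 and 5 against 0.007, 0.045 and 0.057 TP10k.

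Markers of the compartments were read in the cells with *Bmp4*. All 20 had *Pou5f1* above 0, as did all 76 PGC-like cells without *Bmp4*, and *Cdx2*, *Elf5* or *Hand1* was above 0 in 2 of the 20 and in 3 of the 76. Whether cells or RNA of another compartment have a part in *Bmp4* was not tested. Their median number of genes was 5470 against 4732.5, and whether this gap contributes was not tested. Their median *Mylpf* was 14.5 TP10k against 7.89 TP10k and their median *Mt1* 15.6 against 7.18 TP10k.

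Of 8 genes of KIT and LIF signalling 7 were tested and *Kit* and *Akt1*, a kinase downstream of KIT, were the 2 counted as higher. The background was 4.78% higher. *Akt1* averaged 0.263 against 0.164 TP10k. Its fold was 1.49 with a minimum of 4000 genes per cell, 1.41 where *Nanos3* or *Prdm1* was required and 1.41 with comparison cells in which all 4 genes of the rule were at 0, and it was not counted under any of these. The LIF receptor *Lifr* averaged 0.111 against 0.0883 TP10k. Of 11 epigenetic regulators known from germ cells all were tested and 0 were counted, among them *Prmt5*, the arginine methyltransferase that acts with PRDM1 (1.52 against 1.6 TP10k), and the H3K27 methyltransferase *Ezh2* (2.39 against 1.96 TP10k). The 12 cell cycle genes and the 8 p53 targets were all tested with 0 counted in either direction. In lists as short as these and the epigenetic one, 0 is near the background of 4.78% higher and 5.93% lower. Posterior epiblast and mesoderm genes were all 10 under the minimum. Among them, *T* was listed at 0 in all PGC-like cells and was above 0 in 2 of 190 others.

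The Epi cells were also split into 4 sets by the genes of the rule. Besides the 96 PGC-like cells these are 28 cells with *Tfap2c* only, 59 with *Dppa3*, *Nanos3* or *Prdm1* but no *Tfap2c*, and the rest of the 190, with none of the 4. For *Mylpf* the means were 12.3, 10.5, 4.72 and 4.39 TP10k in this order, for *Slc25a4* 7.14, 7.46, 2.12 and 2.40 TP10k, and for *Sox15* 1.21, 1.23, 0.596 and 0.437 TP10k. In these genes the cells with *Tfap2c* only were near the PGC-like cells. The cells with the other genes only were near those with none. These last 2 sets make up the comparison cells by which the genes were chosen or counted. Their distance from the PGC-like cells was thus partly set by that choice and is given as a description.

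*Dnmt3b* and *Otx2* divided in the same way downwards. *Dnmt3b* averaged 0.429 TP10k in the PGC-like cells, 0.501 with *Tfap2c* only, 1.73 with the other genes only and 1.44 TP10k with none, and *Otx2* 0.330, 0.372, 1.04 and 1.03 TP10k. *Dnmt3a* was intermediate with *Tfap2c* only, with 1.47, 2.65, 4.29 and 4.32 TP10k. *Ifitm1* was high in the PGC-like cells alone among the 4 sets, at 18.5 TP10k, against 9.90 TP10k with *Tfap2c* only, 8.95 with the other genes only and 7.30 TP10k with none. With 28 cells the set with *Tfap2c* only is small, and on plate 3, where it has 8 cells, its *Mt1* mean was 2.87 TP10k against 18 TP10k on plate 4 and its *Otx2* mean 0.940 against 0.144 TP10k. *Mylpf* there averaged 5.96 TP10k on plate 3 and 19.7 TP10k on plate 4, so the likeness of this set to the PGC-like cells differed between plates.

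**Figure D5:**
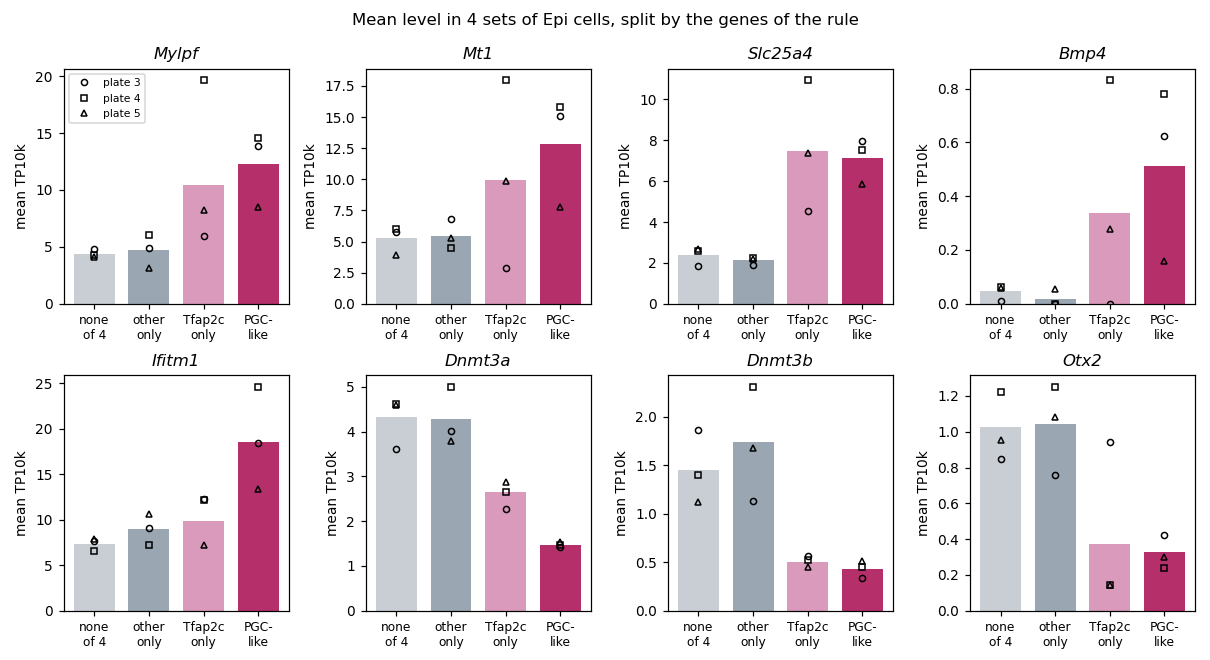
Mean TP10k (bars, from 0) of 8 genes in 4 sets of Epi cells, from left to right the cells with none of the 4 genes of the rule, the 59 with *Dppa3*, *Nanos3* or *Prdm1* only, the 28 with *Tfap2c* only and the 96 PGC-like cells, with open symbols for the means on plates 3, 4 and 5. *Mylpf*, *Mt1*, *Slc25a4* and *Bmp4* are higher and *Dnmt3a*, *Dnmt3b* and *Otx2* lower in the right-hand pair of bars, and *Ifitm1* is high in the last bar alone.

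The PGC-like cells also differed among themselves. In the 22 cells with *Nanos3*, which lie on plates 3, 4 and 5 with 11, 6 and 5 cells, *Otx2* averaged 0.146 TP10k, against 0.385 TP10k in the 74 without. On the plates this was 0.221, 0.114 and 0.022 TP10k against 0.508, 0.272 and 0.353 TP10k. *Sox15* averaged 1.6 against 1.10 TP10k and *Lgals1* 2.81 against 1.64 TP10k, both in the same direction on each plate. The medians of *Sox15* went the other way, with 0.792 TP10k in the cells with *Nanos3* and 0.983 TP10k in those without. *Mylpf* averaged 14.8, 10.7 and 5.39 TP10k on the plates with *Nanos3* and 13.5, 15.7 and 9.08 TP10k without.

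The 27 cells with *Prdm1* differed from the 54 in which *Dppa3* alone accompanied *Tfap2c*. *Mylpf* averaged 6.99 against 14.3 TP10k, with 7.52, 8.68 and 5.40 TP10k on plates 3, 4 and 5 against 15.8, 17.1 and 10.4 TP10k. *Nup62cl* averaged 1.44 against 4.05 TP10k, and was lower with *Prdm1* on each plate. *Sox15* averaged 0.584 against 1.27 TP10k, with 0.406, 0.960 and 0.554 TP10k on the plates against 1.23, 1.26 and 1.31 TP10k. The cells without *Tfap2c* averaged 0.487 TP10k. *Bmp4* was above 0 in 2 of the 27 cells and in 14 of the 54. *Dnmt3a* averaged 0.967 against 1.53 TP10k and *Dnmt3b* 0.238 against 0.545 TP10k, so both subsets lay below the 4.31 and 1.53 TP10k of the cells without *Tfap2c*. Median gene numbers were 4645 and 5019.

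Several genes that were high in the PGC-like cells were also high in the wells of columns 17 to 24, where the ExE markers peak. There *Mt1* averaged 30.4 TP10k, *Slc25a4* 7.62 TP10k, *Lgals1* 7.56 TP10k, *Nup62cl* 3.59 TP10k and *Rhox6* 2.39 TP10k. In columns 9 to 16, where the VE markers peak, *Mt1* (19.3 TP10k) and *Slc25a4* (9.12 TP10k) were high as well. Beyond the marker sums given above, 3 Epi wells were left out in 1 alternative. They had *Pou5f1* at 0 or at least 3 genes of a shorter list of ExE and VE markers above 0. Of these wells 1 was PGC-like. Without them 96.7% of the higher and 92.2% of the lower genes were counted again. The part of such cells in the differences was not tested otherwise. Others were low in both other groups of wells. *Mylpf* averaged 0.425 TP10k in columns 17 to 24 and 0.599 TP10k in columns 9 to 16, and *Sox15* 0.262 and 0.0151 TP10k. *Dppa3* was above 0 in 1.13% of the wells of columns 17 to 24 and in 0.635% of those of columns 9 to 16. *Tfap2c* was above 0 in 58.1% and 3.49% of them.

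The same gene rule was applied to ESCs grown in 2D in 2i/LIF, a medium that keeps the naive state (plate 7, 1 sample). By the paper these are Kermit ESCs sorted by GFP, the line that forms the Epi compartment. It describes no doxycycline for them. Of the ESCs with at least 2500 genes, 80.3% met it (CI 72.8 to 86.5%). These cells had a median of 9093.5 genes, far more than the 5019 of the PGC-like cells, and shares of cells above 0 are therefore not comparable. Their mean *Dppa3* was 0.341 TP10k and their mean *Tfap2c* 0.355 TP10k over all these ESCs, against 5.33 and 1.24 TP10k in the PGC-like cells. The PGC-like cells were chosen for these genes and the ESC means include cells that fail the rule, so the levels are not a comparison. The rule was thus also met by cells grown as naive ESCs. So were several of the early germ cell genes counted as higher in RtL-embryoids present in them. Over all these ESCs *Kit* (0.795 TP10k), *Elf3* (1.26 TP10k) and *Ifitm3* (16.3 TP10k) averaged more than in the PGC-like cells. *Ifitm1* (6.82 TP10k) and *Sox15* (0.443 TP10k) averaged less.

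Within the ESCs the cells that met the rule differed little from the 18 with *Tfap2c* at 0 in the genes that led in RtL-embryoids. *Mylpf* averaged 6.28 against 6.81 TP10k, *Mt1* 13.1 against 10.7 TP10k, *Slc25a4* 2.50 against 1.92 TP10k and *Gpx1* 17.2 against 17.4 TP10k. *Dnmt3a* averaged 0.405 against 0.289 TP10k and *Dnmt3b* 0.456 against 0.651 TP10k. *Ifitm1* was 1.55-fold higher there too (7.38 against 4.76 TP10k), where 1622 of the 11418 genes tested were at least 1.5-fold higher. With 18 cells on one side and 1 sample in each condition, the difference between RtL-embryoids and ESCs was not tested.

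Because *Tfap2c* encodes an AP-2 factor, promoters were searched for the AP-2 motif GCCNNNGGC, which reads the same on both strands, in the RefSeq windows from 250 bases before to 50 after the start. Promoters were found for 81.3% of the higher genes, 82.7% of the lower genes and 82% of the 7609 tested. The motif was present in 29.7% of the higher, 32.4% of the lower and 29.4% of all tested genes, and in 16.6% of all 32851 windows. By presence alone the higher genes held it about as often as the genes tested in general. Windows with 3 or more matches were found for 2.36% of the higher, 0.804% of the lower and 1.11% of all tested genes. A match is a likeness of letters, and whether TFAP2C acts on these genes was not tested.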

How the data were processed

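The authors sorted single cells of 1 pool of RtL-embryoids and of 2D cultures into plates, sequenced them with SMART-seq2 (no molecular identifiers), demultiplexed the reads with bcl2fastq 2.20, pseudoaligned them with kallisto to GRCm38 and summed them per gene with tximport. They filtered mitochondrial, ribosomal and pseudogenes and deposited TPM for 20999 genes, which keep no read number.

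The 96 PGC-like cells, the lists and the comparison were chosen with earlier results of these data known. Wells under 2500 genes above 0 TPM were left out, and no doublet caller was run. 0 wells had identical values. TPM were scaled to 10000 per cell, and ln(TP10k + 1) ranked the genes. The genes named are those of the lists and the 10 of largest difference in each direction, among genes above 0 in at least 25% of either set and going the same way on plates 3, 4 and 5. Any other gene was named after its values were seen. Intervals are exact (Clopper-Pearson, 95%) and cover counting error only. No test between sets was made, since each condition is a single sample.

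The code that counts genes was tested on simulated data, made from the cells without *Tfap2c* with known folds put in. This checks the code and gives no error rate for the shares of genes counted. Alternatives were other minimums, selections, scalings and pseudocounts, and leaving out each plate. *Gm7325* and *Rhox5* and the iTSC and iXEN wells were not analysed here. Promoters came from RefSeq (GRCm38.p6) and coordinates from Gencode vM21 of the same build as the labels. Python 3.11.15, numpy 2.4.6, pandas 2.3.3, scipy 1.17.1 and matplotlib were used.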

Additional observations from a re-analysis of the deposited data

Results flagged for a closer look

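Both results given here were picked because a gene that was lower in the PGC-like cells of RtL-embryoids was at least 1.5-fold higher among the 2i/LIF ESCs that met the same rule, against the ESCs with *Tfap2c* at 0. The difference between the 2 conditions was not tested, and each condition is 1 sample. *Trh* had a fold of 0.492 in RtL-embryoids and of 1.79 in the ESCs, where its level was low in both sets (0.286 against 0.160 TP10k). *Sall2* had a fold of 0.150 in RtL-embryoids and of 1.94 in the ESCs (0.026 against 0.013 TP10k). Only 18 ESCs had *Tfap2c* at 0. Of the 11418 genes tested in the ESCs, 1622 were at least 1.5-fold higher in the cells that met the rule. A fold of this size was thus common there.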

How the results depend on the processing

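No paired analysis was possible because no result comes from a test and the plates are splits of 1 sample. The 20 genes of largest difference reversed under none of 14 alternatives, and 44 of their 280 values moved by more than the spread between plates. They had been chosen for a common direction on the plates, and the alternatives on detection and on *Tfap2c* at 1 TPM leave their values as they are, so this is no sign of stability. The share of PGC-like cells was 13.4% where *Nanos3* or *Prdm1* was required, and 27.7 to 33.3% without 1 plate. Of the genes tested, 5.42% were higher and 8.87% lower with detection in at least 10% of cells (10186 genes), 4.12% and 10.1% with no minimum of detection (17049 genes), and 12.8% and 9.2% with mean log2(TPM + 0.1), against 4.78% and 5.93% as reported. Without 1 plate 6.56 to 8.02% were higher and 8.78 to 9.92% lower, where 2 plates had to go the same way in place of 3.

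The genes counted also changed. With comparison cells weighted to the gene numbers of the PGC-like cells, 81.3% of the higher and 76.7% of the lower genes were counted again. With a minimum of 4000 genes per cell this was 62.6% and 58.5%, and with *Nanos3* or *Prdm1* required 53.3% and 57%. *Tfap2c* at 1 TPM or more changed no value. TPM keep no read number, and a value of 0 cannot be told apart from a level below detection.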

Other observations

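Several genes outside the lists also differed, and those given here were named after their values were seen. *Crip1*, a small LIM domain protein, averaged 2.76 TP10k in the PGC-like cells against 0.896 TP10k in the Epi cells with *Tfap2c* at 0, with folds of 2.98 to 3.30 on the plates. *Tdrd12*, a Tudor domain gene of the piRNA pathway in germ cells, averaged 1.33 against 0.472 TP10k, and was above 0 in 57 of 96 against 58 of 190 cells. It averaged 0.089 TP10k in columns 17 to 24 and 0.022 TP10k in columns 9 to 16. *Gstm2*, a glutathione transferase, averaged 1.97 against 1.0 TP10k and *Sod2*, the mitochondrial superoxide dismutase, 1.95 against 1.13 TP10k. *Gpx4*, the glutathione peroxidase that protects membrane lipids, averaged 35 against 25.9 TP10k and did not reach 1.5-fold, while *Gpx3*, a secreted one, was lower (0.182 against 0.600 TP10k).

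Downwards, *Fgf15* averaged 0.283 against 0.857 TP10k, *Lefty1*, a NODAL antagonist, 1.42 against 2.78 TP10k, and *Car4*, a carbonic anhydrase, 0.498 against 1.66 TP10k. *Lefty2*, the neighbouring antagonist on the primed list, averaged 2.71 against 3.23 TP10k and was not counted.

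By chromosome, 10.3% of the tested genes on the X were higher, against 4.78% over all genes and 2.61 to 6.21% on the autosomes, and 7.76% were lower. The median log2 fold of the X-linked genes was -0.03. This count was made after the values of *Nup62cl* and the *Rhox* genes had been seen.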
